A study of Homo sapiens with 12 samples.

Results

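The genes described are 5 integrin chains, ITGA1, ITGA2, ITGA5, ITGB8 and ITGB3, out of 770 genes on a NanoString nCounter panel of tumour progression. They were chosen by name and selected on their group means in the authors' 3 tables, so those means and the deposited p-values beside them are given as a description. All 5 were present in each of the 3 tables. Each sample was HCT-116, an established line of human colorectal carcinoma cells, collected after 24 h in 1 of 4 groups of 3 samples: heteronemin, tetrac, heteronemin plus tetrac, and Control. Heteronemin is a sesterterpenoid that marine sponges make. Tetrac, or tetraiodothyroacetic acid, is a derivative of thyroxine without its amino group. The sources used here give neither doses nor the content of the Control medium. The labels do not say whether the samples of a group were separate cultures, so the spread behind the deposited p-values is that of these samples alone and may be technical.

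Integrins are membrane receptors built from an alpha and a beta chain, which bind matrix proteins or counter-receptors outside the cell and couple to the actin cytoskeleton inside it. ITGA1 and ITGA2 pair with ITGB1 to form collagen receptors, and ITGA5 pairs with ITGB1 to form the main fibronectin receptor. ITGB8 and ITGB3 both pair with the alpha-v chain: alpha-v beta-8 binds latent TGF-beta and can activate it, and alpha-v beta-3 binds vitronectin and other proteins with the RGD motif. Alpha-v beta-3 also carries the cell surface site for thyroid hormone at which tetrac is described as an antagonist. The alpha-v chain itself is not among the 17 integrin chains measured, so its level is not known here.

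The values are the authors' group means of normalized counts, without values per sample, so no SD, interval or depth can be given. It is therefore not known for any gene which neighbouring groups differ beyond their spread. The lowest mean in the tables was 33, which is taken as a floor. It was the mean of 70 genes after heteronemin, 61 after tetrac, 90 after the combination and 279 in Control. A gene was called where the p-value in the authors' deposited table was printed under 0.05, unadjusted. That threshold called 191 of 704 tested genes (27.1%) after heteronemin, 9 of 714 (1.26%) after tetrac and 153 of 686 (22.3%) after the combination. The 6 measured epithelial markers, among them EPCAM and CDH1, were above the floor in all groups. Their summed means were 5503.5 after heteronemin, 5402 after tetrac, 6141 after the combination and 6014 in Control. The 3 leukocyte, 5 endothelial and 7 fibroblast markers measured were mostly low, but COL1A1 had 144.34 after heteronemin and 133.25 after the combination. Their sums were 137.8, 268.1 and 471.4 after heteronemin, 123.3, 207.7 and 332 after tetrac, 127.4, 234.2 and 392.3 after the combination, and 99, 168 and 265.4 in Control, where 3, 3 and 5 of them were at the floor. TEK was at the floor in all 4 groups. The part of these other markers in the results on integrins was not tested.

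**Figure D1:**
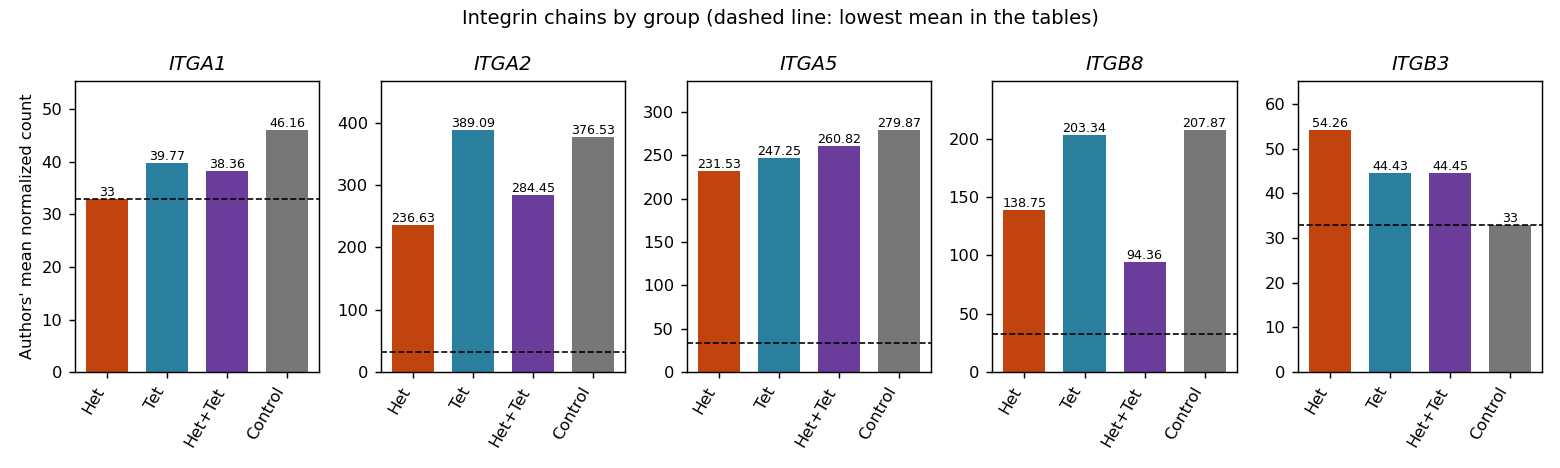
Authors' mean normalized count (vertical axis, from 0, with a scale of its own in each panel) of the 5 integrin chains after heteronemin (Het), tetrac (Tet), both (Het+Tet) and in Control. Each bar is 1 deposited group mean without an error, and the dashed line is the floor of 33. ITGB8 was lowest after the combination, ITGA2 and ITGA5 were lowest after heteronemin, ITGA1 was at the floor after heteronemin, and ITGB3 was at the floor in Control.

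After heteronemin, 4 of the 5 chains, ITGA1, ITGA2, ITGA5 and ITGB8, were called lower and none was called higher. ITGB3 was above the floor after heteronemin and not called. Of all tested genes 15.9% were called lower and 11.2% higher in that comparison. The 4 chains were chosen with these values known, so nothing is read from the count. After tetrac 0 of the 5 chains was called, where 0.980% of all tested genes were called lower and 0.280% higher. After the combination 1 of the 5, ITGA2, was called lower and 0 higher, where 14.1% of all tested genes were called lower and 8.16% higher. When the printed p-values were adjusted by Benjamini-Hochberg over all tested genes, ITGB8 after heteronemin and ITGA2 after the combination were called. Both had a p printed as 0, which stays 0 under this adjustment, so nothing is read from it. With each p raised to the top of its rounding interval before the adjustment, 0 genes of any kind were called in the 3 tables, so each of these calls rests on p-values as printed. RNA was taken from whole cultures, so fewer cells that express a chain and less RNA per cell cannot be told apart.

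The collagen receptor chain ITGA2 had a mean of 236.63 after heteronemin, 389.09 after tetrac, 284.45 after the combination and 376.53 in Control. Both groups that received heteronemin were thus lower than both that did not. The mean after heteronemin was 1.59-fold lower than in Control, at a log2 ratio of -0.67 and p = 0.03 in the authors' deposited table. Of the 704 tested genes 16, or 2.27%, had a lower log2 ratio after heteronemin. ITGA2 was selected on its means, so nothing is read from this rank. After the combination the mean was 1.32-fold lower, at a log2 ratio of -0.40 and a p printed as 0 in the authors' deposited table, which stands for any p below 0.005. After tetrac alone the log2 ratio was 0.05, with p = 0.8 in the authors' deposited table.

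ITGA1, the other alpha chain of collagen receptors, had means close to the floor: 33 after heteronemin, 39.77 after tetrac, 38.36 after the combination and 46.16 in Control. All 3 treated means were below the Control mean. The mean after heteronemin was the floor itself, so the 1.40-fold lower value (log2 ratio -0.48, p = 0.04 in the authors' deposited table) is set by the floor, and a lower level could not have been recorded. After tetrac the log2 ratio was -0.22, with p = 0.37 in the authors' deposited table. After the combination it was -0.27, with p = 0.15 in the authors' deposited table. The whole range of ITGA1 from the floor to Control was 13.16 normalized counts. Most genes of like level lay the other way: the median log2 ratio of the 51 genes nearest in mean level was 0.49 after heteronemin, 0.26 after tetrac and 0.23 under the combination, and ITGA1 lay at percentile 2 of its nearest 50 in each. The mean level includes the treated means, and many of these neighbours were at the floor in Control, where a log2 ratio cannot be negative. ITGA1 was also selected on its means. Both the matching and the selection can lower its percentile. Their part was not tested, so nothing is read from the percentile.

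The fibronectin receptor chain ITGA5 had a narrow range, with means of 231.53 after heteronemin, 247.25 after tetrac, 260.82 after the combination and 279.87 in Control. Its highest group mean was 1.21-fold its lowest. Heteronemin gave a log2 ratio of -0.27 over Control, with p = 0.02 in the authors' deposited table. This is a small difference among genes of like level, whose median was -0.14, and 21.6% of tested genes had a lower ratio. After tetrac the log2 ratio was -0.18 and after the combination it was -0.10, each with p = 0.36 in the authors' deposited table.

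ITGA1 and ITGA2 lie next to each other on chromosome 5. In RefSeq, 1 protein-coding gene, PELO, starts between them in the gene order, and it is listed with the same start as ITGA1, so the bases before that start precede both. The 250 bases before the annotated start of the 3 alpha-chain genes called lower after heteronemin are shown from RefSeq (GRCh38.p14), since these genes were lower together. They were searched on both strands for the GC box GGGCGG, which Sp1 family factors bind, and for the AP-1 motif TGANTCA, which JUN-containing dimers bind. Capitals mark the matches, which do not overlap each other.
ITGA1 (chr5:52787666-52787915, plus strand): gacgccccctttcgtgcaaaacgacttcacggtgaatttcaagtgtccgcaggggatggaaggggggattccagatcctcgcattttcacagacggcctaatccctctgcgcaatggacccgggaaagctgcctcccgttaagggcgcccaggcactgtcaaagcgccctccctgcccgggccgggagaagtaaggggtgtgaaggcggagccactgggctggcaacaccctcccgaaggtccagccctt
ITGA2 (chr5:52989102-52989351, plus strand): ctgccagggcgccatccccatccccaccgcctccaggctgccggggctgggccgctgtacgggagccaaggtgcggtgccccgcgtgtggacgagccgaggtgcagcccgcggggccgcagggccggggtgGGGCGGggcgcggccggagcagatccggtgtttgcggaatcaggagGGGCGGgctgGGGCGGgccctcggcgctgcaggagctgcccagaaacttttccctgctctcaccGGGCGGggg
ITGA5 (chr12:54419267-54419516, minus strand): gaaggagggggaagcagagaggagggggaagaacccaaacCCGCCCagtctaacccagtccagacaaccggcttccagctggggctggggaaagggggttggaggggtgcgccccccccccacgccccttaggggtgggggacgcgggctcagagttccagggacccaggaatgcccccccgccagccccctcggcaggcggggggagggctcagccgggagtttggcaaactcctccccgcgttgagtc
The ITGA2 window held 4 GC boxes, the ITGA5 window 1 and the ITGA1 window 0. Of 35116 windows of the same length in the promoter table, 42.6% held at least 1 and 7.63% at least 4. The window of ITGB8 held 2, and 24.3% of all windows held at least as many. None of the 4 windows held TGANTCA, which 6.57% of all windows held. The ITGA5 window ended in all but the last letter of this motif, and the search could not see a match that runs over the start. The G and C content was 62% for ITGA1, 76.4% for ITGA2, 70% for ITGA5 and 71.2% for ITGB8, against a median of 58% over all windows. A match is a description of the letters and not a measured binding site, and neither motif was found in all 3 windows shown.

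ITGB8, the beta chain of the receptor for latent TGF-beta, had means of 138.75 after heteronemin, 203.34 after tetrac, 94.36 after the combination and 207.87 in Control. The tetrac and Control means lay close together, and the combination mean lay below that of heteronemin alone. Heteronemin gave a log2 ratio of -0.58, with a signed fold of -1.5 and a p printed as 0 in the authors' deposited table. Tetrac gave -0.03, with p = 0.75 in the authors' deposited table. The combination gave the largest difference among the 17 measured integrin chains in any table, a log2 ratio of -1.14 or 2.20-fold lower. Of 686 tested genes 3 had a lower ratio under the combination: BMP4, a TGF-beta family growth factor, ID2, an inhibitor of differentiation, and JAG1, a Notch ligand. These 3 were named after their values were seen. ITGB8 was selected on its means, so nothing is read from this rank. The p of ITGB8 under the combination was printed as 0.05 in the authors' deposited table, so ITGB8 was not called there, although it was called for a smaller ratio after heteronemin. A printed 0.05 covers values on both sides of the threshold.

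ITGB3, the beta chain of the tetrac receptor, was at the floor of 33 in Control. Its mean was 54.26 after heteronemin, 44.43 after tetrac and 44.45 with both compounds, or 21.26, 11.43 and 11.45 normalized counts above the floor. None of these was called, at p = 0.17, 0.42 and 0.23 in the authors' deposited table. The log2 ratios over the floor were 0.72, 0.43 and 0.43; as the Control value is the floor, they depend on where the floor was set. Other genes that were at the floor in Control had treated means close to those of ITGB3. Heteronemin left 213 such genes above the floor, with a median treated mean of 55.39, and 46.5% of them had a lower mean than ITGB3. Tetrac left 223 above it, with a median of 43.19 and 55.6% below ITGB3, and the combination 195, with a median of 43.11 and 59.5% below it. The RefSeq promoter table used here was matched for the other 4 chains, and ITGB3 is named only.

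**Figure D2:**
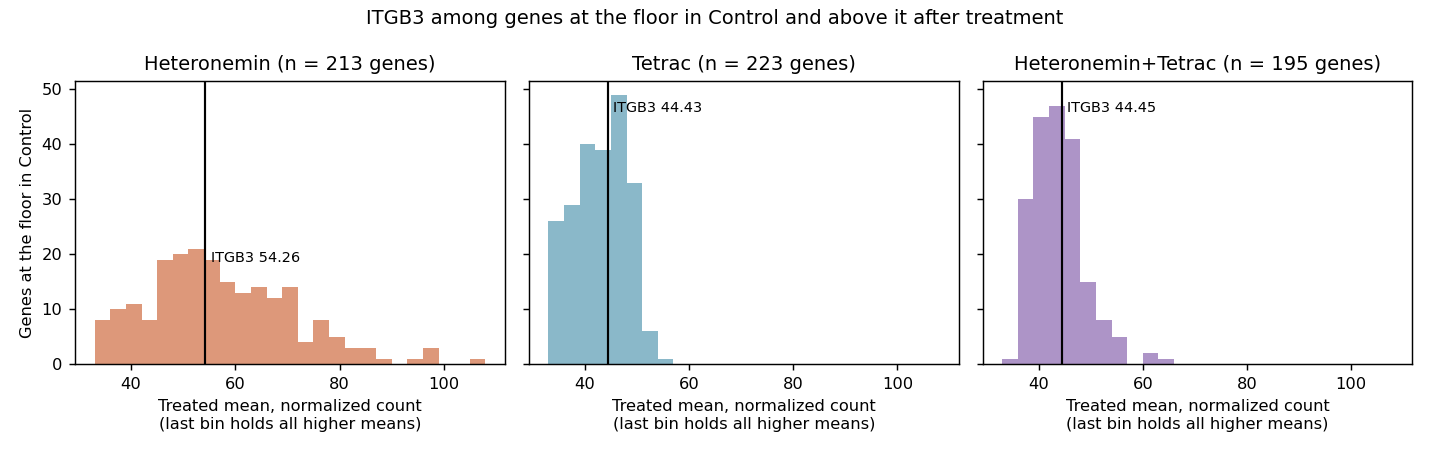
Number of genes (vertical axis) whose Control mean was the floor, by their treated mean in normalized counts (horizontal axis), in the 3 treated groups. The vertical line is ITGB3, which lay near the middle of each distribution, at 54.26 among 213 genes, 44.43 among 223 and 44.45 among 195.

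The deposited p-values of such genes were set against simple arithmetic. If every Control sample lies at the floor and a single treated sample lies above it, a two-sided test with unequal variances returns 0.4226 whatever the height of that sample. With a pair of the 3 treated samples above it, the smallest value it can return is 0.1835. The sources used here do not name the authors' test, so this is arithmetic for that test only. Among the genes that left the floor with tetrac, 212 of 223 had a p of 0.42 in the authors' deposited table, ITGB3 among them. For the combination the count was 148 of 195, without ITGB3, and for heteronemin 10 of 213, also without it. No such gene had a p above 0.42 in any of the 3 tables. The value of ITGB3 after tetrac is the one this arithmetic gives for a single sample above the floor, and its 0.17 after heteronemin is below the smallest value for a pair.

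The treated groups were then set side by side, without a test, since the tables hold none for these ratios. The combination over heteronemin alone gave a log2 ratio of -0.56 for ITGB8, which lay at percentile 2 among the 50 genes nearest in level. The same ratio was 0.27 for ITGA2, 0.17 for ITGA5, 0.22 for ITGA1, whose mean after heteronemin was the floor, and -0.29 for ITGB3. In this order they lay at percentiles 90, 82, 96 and 74 among genes of like level, so most such genes had a lower ratio than ITGB3. ITGB8 was therefore lower with tetrac added to heteronemin, while the 3 alpha chains were higher. The median over all genes was -0.05. The combination over tetrac alone gave -1.11 for ITGB8 and -0.45 for ITGA2, at percentiles 0 and 6 among genes of like level. It gave 0.08 for ITGA5, -0.05 for ITGA1 and 0.00 for ITGB3. Heteronemin over tetrac gave -0.72 for ITGA2, -0.55 for ITGB8, -0.27 for ITGA1, -0.09 for ITGA5 and 0.29 for ITGB3. The chains were selected on their means, so nothing is read from the percentiles of these ratios.

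The log2 ratio of the combination was also compared with the sum of the log2 ratios of both single treatments, which all share the Control mean. For ITGB8 the combination stood at -1.14 and the sum at -0.62, a difference of -0.52. For ITGA2 they stood at -0.40 and -0.62 (difference 0.22), for ITGA5 at -0.10 and -0.45 (0.35) and for ITGA1 at -0.27 and -0.70 (0.43). For ITGB3 they stood at 0.43 and 1.15, a difference of -0.72. Over the 356 genes with a mean level of at least 100 normalized counts, the median of this difference was 0.18, from -0.47 at the 5th percentile to 0.46 at the 95th. ITGB8 lay just below that range, and ITGA2 and ITGA5 lay inside it. Among the 50 genes nearest in level, however, ITGB8 lay at percentile 6, and with a pseudocount of 20 its difference was -0.44, so it is not set apart from other genes by this measure. ITGA1 and ITGB3 each have the floor in one of their means, which limits what the difference can show for them.

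**Figure D3:**
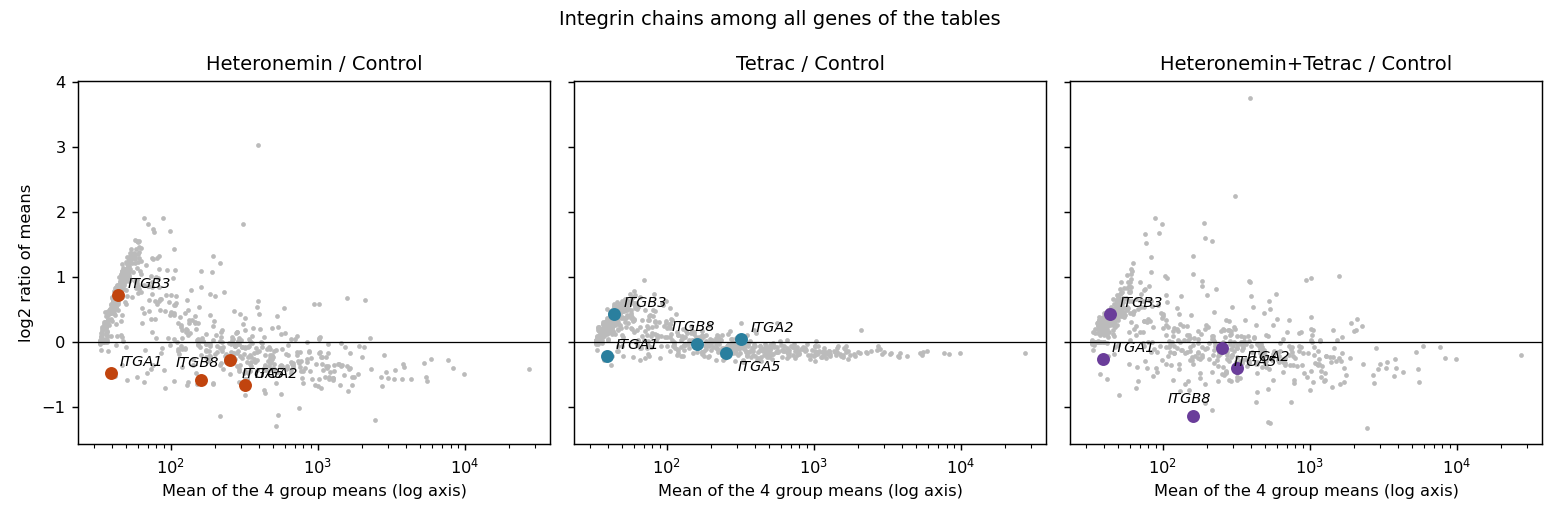
Log2 ratio of treated over Control means (vertical axis) against the mean of the 4 group means in normalized counts (horizontal log axis), for all 770 genes (grey) and the 5 integrin chains (coloured), after heteronemin, tetrac and the combination. ITGB3 lay within the cloud of genes near the floor in all 3 panels, and ITGB8 lay at the lower edge of the combination panel, at -1.14.

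Of the 26 human integrin chains, 17 were measured, 10 alpha and 7 beta. Besides the 5 described, the only other chain called in any table was ITGB4, which pairs with ITGA6 in hemidesmosomes. ITGB4 had means of 809.49 after heteronemin, 1114.77 after tetrac, 776.36 after the combination and 1299.19 in Control. It was called after heteronemin (log2 ratio -0.68, p printed as 0 in the authors' deposited table) and after the combination (-0.74, p = 0.02), and not after tetrac (-0.22, p = 0.19). After heteronemin 5 of 14 tested integrin chains were called lower and 0 higher, with a median log2 ratio of 0.02 over the 14, against 0.23 over all tested genes. As 4 of these 5 were chosen with their values known, the rest of the family is given alone: 1 of 9 other chains was called lower, with a median of 0.10, where 15.9% of all tested genes were called lower. The combination called 2 of 14 lower and 0 higher, with a median of 0.11, against 0.17 over all tested genes. Without the 5 chains, 1 of 9 was called lower under the combination, with a median of 0.24, where 14.1% of all tested genes were called lower. After tetrac 0 of 15 were called, with a median of -0.03, against 0.07 over all tested genes. Over the 356 genes at a mean level of at least 100, the median was -0.19 after heteronemin, -0.11 after tetrac and -0.15 under the combination. The medians over the 14 or 15 tested chains lay above these and below those of all tested genes, so no shift of the family is read from them.

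The partner chain of ITGA1, ITGA2 and ITGA5 was not called in any table. This is ITGB1, the beta chain with the highest mean, at 2277.63 after heteronemin, 1967.49 after tetrac, 2589.96 after the combination and 2197.38 in Control. Its log2 ratios were 0.05, -0.16 and 0.24, none of them called, with p from 0.21 to 0.74 in the authors' deposited table. ITGA3, a laminin receptor chain and the alpha chain with the highest mean, had log2 ratios of -0.00, -0.10 and 0.13 in the same order of groups, none of them called. The difference between these chains and the 4 called lower was not tested. ITGA11 and ITGB6 were at the floor in all 4 groups. ITGB7 was at the floor in all groups except tetrac, where its mean was 33.23. ITGA8, ITGA9, ITGAM and ITGB2 were at the floor in Control, as ITGB3 was, with treated means from 35.27 to 60.88 and no call.

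**Figure D4:**
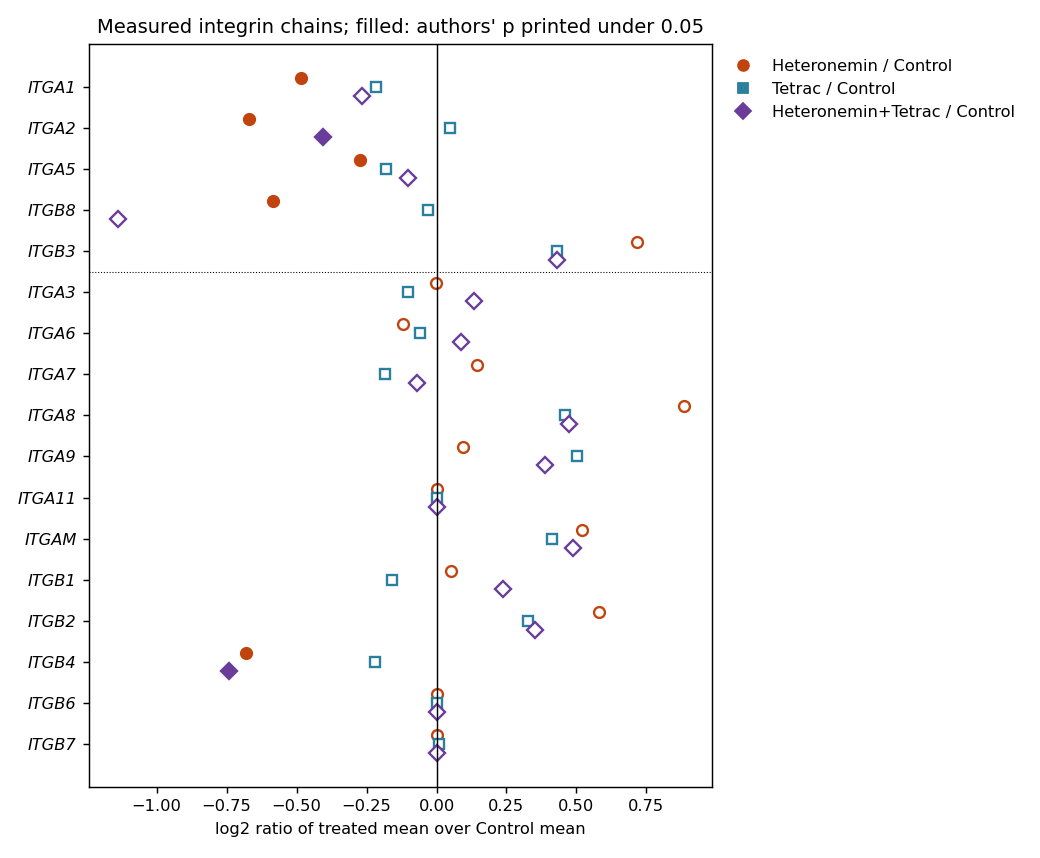
Log2 ratio of treated over Control means (horizontal axis) for the 17 measured integrin chains (rows), after heteronemin (circles), tetrac (squares) and the combination (diamonds); the 5 chains described stand above the dotted line. Filled symbols had a p printed under 0.05 in the authors' deposited table; these are 5 circles, 0 squares and 2 diamonds, and the lowest symbol, ITGB8 after the combination, is open at p = 0.05.

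The ligands of these receptors were counted from fixed lists, described by counts beside the shares of all genes given above. Of 20 measured collagen and laminin genes, which include ligands of ITGA1 and ITGA2 receptors, 6 of 16 tested were called higher after heteronemin and 0 lower, with a median log2 ratio of 0.86. Of all tested genes 11.2% were called higher and 15.9% lower in that comparison. Their median log2 ratio was 0.23, and it was -0.19 over those at a mean level of at least 100. Some genes of the list were at the floor in Control and could not have a negative ratio, so nothing is read from its median. Among the called genes the largest rise was that of LAMA3, at 115.55 after heteronemin and 46.05 in Control. It was followed by COL7A1 at 111.07 after heteronemin and 51.13 in Control, COL1A1 at 144.34 after heteronemin and 67.15 in Control, and LAMB3 at 215.5 after heteronemin and 101.82 in Control. COL5A1, named after its values were seen, had a larger log2 ratio (1.24) than the last 3 and was not called, at p = 0.07 in the authors' deposited table. LAMA3 and LAMB3 are chains of laminin-332, a ligand of ITGA3 and ITGA6 receptors, and COL7A1 is the anchoring fibril collagen, while COL1A1 encodes a chain of the fibrillar collagen that ITGA1 and ITGA2 receptors bind. After the combination 5 of 15 were called higher and 3 lower, where 8.16% of all tested genes were called higher and 14.1% lower. LAMB3 was at 363.15 after the combination and 101.82 in Control. After tetrac 1 of 16 was called, LAMA5, at 266.92 after tetrac and 292.75 in Control, where 1.26% of all tested genes were called.

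Of 10 measured genes for RGD ligands and latent TGF-beta, 2 were called higher and 1 lower after heteronemin. The shares of all tested genes in that comparison were 11.2% higher and 15.9% lower. SPP1, or osteopontin, which alpha-v beta-3 binds, was higher at 137.05 after heteronemin and 36.35 in Control, close to the floor. THBS1, a matrix glycoprotein, was higher at 125.84 after heteronemin and 84.58 in Control. FN1, the fibronectin that ITGA5 receptors bind, was at the floor of 33 after heteronemin and after the combination and at 46.46 in Control, with p = 0.04 for both in the authors' deposited table. After the combination SPP1 (137.22) and THBS1 (129.09) were called higher again. FN1 was called lower along with TGFB1, whose latent form is the cargo of the ITGB8 receptor, at 216.72 after the combination and 283.33 in Control (log2 ratio -0.39, p = 0.02 in the authors' deposited table). Under the combination 8.16% of all tested genes were called higher and 14.1% lower. After tetrac 0 of 10 were called, where 1.26% of all tested genes were called.

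Of 13 measured genes of integrin adhesion and signalling, 3 were called lower after heteronemin: the caveolar protein CAV1 (514.13 after heteronemin and 1048.29 in Control), the cytoskeletal kinase ROCK2 (1051.48 after heteronemin and 1578.32 in Control) and the small GTPase CDC42 (1995.83 after heteronemin and 2671.17 in Control). The focal adhesion kinase relative PTK2B was called higher, at 161.46 after heteronemin and 114.82 in Control. After the combination CAV1 (549.44), ROCK2 (1035.43) and CDC42 (2106.9) were again called lower and 0 genes higher. The median log2 ratio of the list was -0.33 after heteronemin, -0.15 after tetrac and -0.17 under the combination, and 0 of 13 were called after tetrac. Over the 356 genes at a mean level of at least 100, the median was -0.19 after heteronemin, -0.11 after tetrac and -0.15 under the combination. The 3 of 13 called lower stand beside 15.9% of all tested genes after heteronemin and 14.1% under the combination, so nothing particular to the list is read from them.

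The genes whose pattern was nearest to each chain were found by the Euclidean distance over the 3 log2 ratios to Control, among 715 genes above the floor in at least 1 group. For ITGB8 only 1 gene lay within a distance of 0.2, RGCC, a regulator of the cell cycle, at 0.198, with means of 158.47 after heteronemin, 240.07 after tetrac, 127.31 after the combination and 245.52 in Control. The next were the actin-severing protein GSN at 0.28 and the BMP receptor BMPR2 at 0.37. For ITGA2 there were 2 genes within 0.2, the matrix peroxidase PXDN at 0.14 and TMC6 at 0.18, followed by the membrane protease MMP14 at 0.22. These 2 chains thus had few neighbours. Both were selected on these means and had ratios at the low end, where genes are sparse, so nothing is read from the counts. ITGA5 had 81 genes within 0.2, among the nearest ANXA2P2, an annexin A2 pseudogene whose counts may include its parent gene, and NAA15, a subunit of an N-terminal acetyltransferase. ITGA1 had 75, led by the hyaluronan receptor CD44, the metalloprotease ADAM9 and the kinase anchor AKAP12, all with far higher means, so that their ratios were not set by the floor. ITGB3 had 61, and its nearest 3, the lectin CLEC2B, the matrix proteoglycan PRELP and the chemokine CXCL17, were all at the floor in Control. The distance rests on 3 ratios from 4 group means that share the Control mean.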

How the data were processed

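RNA of 12 HCT-116 samples was measured with the nCounter PanCancer Progression panel. The authors used nSolver 4.0 to normalize the raw counts, technically through positive controls and then biologically, per the series' design text. The authors deposited a normalized signal (group means of treated samples and Control), a signed fold change, which is the score column and matched the quotient of the means within 0.00511, and a p-value printed to 2 decimals, in 3 tables of 740 endogenous and 30 housekeeping genes. All tables held the same Control column. The sources used here give neither the kind of mean nor the test nor any background step. Per-sample values were not analysed here.

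Log2 ratios of means were computed, and the percentile of each chain among its 50 genes of nearest mean level. The members and lists were chosen with earlier results of these data known. The named genes are the 5 chains, other integrins called in a table or with the highest alpha or beta mean, up to 4 called genes per list and table with the largest change, and 3 nearest genes per chain; a few genes within these rules are not reported here. Of 17 integrin symbols all were in RefSeq's table (GRCh38.p14); the tables name no build. nCounter counts 1 barcode per transcript and probes differ in efficiency, so no levels are ranked between genes beyond that naming rule. Call counting was tested on simulated data. Python 3.11.15, numpy 2.4.6, pandas 2.3.3, scipy 1.17.1 and matplotlib 3.10.9 were used.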

Additional observations from a re-analysis of the deposited data

How the results depend on the processing

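No paired analysis was possible because the tables hold group means and no values per sample; for the same reason no replicate could be left out. Each count of calls at p under 0.05 stayed within 1.5 times when a mean level of 100 was required. At p under 0.01 and with the printed p-values adjusted by Benjamini-Hochberg alike, 41 genes were called after heteronemin, 0 after tetrac and 48 under the combination. Of the integrin chains 2 were called after heteronemin (ITGB4 and ITGB8), 0 after tetrac and 1 under the combination (ITGA2). With the adjustment on the largest p that rounds to the printed one, 0 genes and 0 integrin chains were called in each table. With a 1.5-fold minimum added to p under 0.05, 95 genes were called after heteronemin, 0 after tetrac and 69 under the combination. Of the integrin chains 2 were called after heteronemin (ITGA2 and ITGB4), 0 after tetrac and 1 under the combination (ITGB4). None of the described chains was called in the same comparison both at p under 0.01 and with the 1.5-fold minimum. ITGB8 after heteronemin missed that minimum narrowly, at 1.498-fold from the means, where the authors' signed fold is printed as -1.5.

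No called log2 ratio of the 5 chains turned its sign with median scaling or the level correction. The pseudocount and the floor subtraction keep the order of the means. They could not turn the sign of a ratio, so nothing is read from signs under them. All 35 ratios and differences moved by at most 0.1 with housekeeping scaling. That setting could hardly move them, since the deposited means were already normalized. The geometric mean of the housekeeping genes was 296.1 after heteronemin and 299.6 in Control, so nothing is read from this setting. With median scaling, which shifts all genes by 0.11 after heteronemin, 14 of 15 kept their sign; the exception was the uncalled ITGB8 after tetrac, at 0.04. The level correction turned 3 of 15 or brought them to 0: ITGA5 after the combination (0.02), ITGB3 after heteronemin (-0.04) and ITGB3 after tetrac (0). Near the floor the values follow the floor. With the floor subtracted and a pseudocount of 10, ITGA1 after heteronemin was at -1.21 and ITGB3 at 1.64, and with a pseudocount of 20 at -0.32 and 0.49. ITGB8 after the combination lay from -0.99 to -1.37 under both. For the combination minus the sum, whose settings were added after the data were seen, ITGB8 lay between -0.44 and -0.66.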
